A study of Homo sapiens with 12 samples.

Results

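The TRIM family of ubiquitin ligases was followed across 4 lines of MIA PaCa-2, a human pancreatic carcinoma cell line. Members were the rows of the expression table whose gene symbol is TRIM followed by a number, without TRIM28, TRIM33 and TRIM45. This gave 63 of the 63086 genes in the table. Of these, 38 averaged 10 or more normalised counts across the 12 libraries and were tested among 15987 genes, 25 fell under that mean, and 11 of the 25 had no read in any library. Relatives that carry the same domains under other symbols, such as PML and MID1, were not members and are described at the end.

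TRIM proteins share an N-terminal tripartite motif of a RING domain, B-boxes and a coiled coil. The RING domain recruits a ubiquitin-charged E2 enzyme, the coiled coil pairs the chains, and the C-terminal domain, often PRY-SPRY, picks the substrate. Many members are induced by interferon and restrict viruses or tune the sensors that lead to interferon, while others act in neurons, muscle, transcription or the cell cycle.

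WT was the parental line without editing. CRISPR Control had been through CRISPR-Cas9 editing and carried only a silent point mutation in TIMP1, which encodes a secreted inhibitor of metalloproteinases. TIMP1 KO 1 and TIMP1 KO 2 were knockout clones made with a pair of guide RNAs against exon 4 of TIMP1. Each edited line came from 1 clone, so a difference between lines cannot be told apart from a difference between clones. KO 1 and KO 2 are named deficient below, and the lines with intact TIMP1 protein competent. All were grown in the same medium with fetal calf serum, and each had 3 libraries that the titles name biological replicates. Libraries held 26908701 to 36093563 reads in genes. Replicates of a line varied beyond counting noise (chi-square per gene of 4.31 to 26.7 between pairs), most widely in CRISPR Control. WT averaged 3553 normalised counts of TIMP1, CRISPR Control 2690, KO 1 1600 and KO 2 1161, and a transcript level does not show whether protein was made. In bulk RNA, fewer cells with a transcript and less transcript per cell cannot be told apart, which holds for every value given here. The list of markers for this carcinoma line held VIM, KRT8, KRT18, EPCAM and CDH1. VIM, KRT8 and KRT18 were high in every line, while the epithelial cadherin CDH1 averaged 1189 (WT), 1424 (CRISPR Control), 128 (KO 1) and 84.9 (KO 2). Against WT, 4 of the 5 were lower in KO 2 and 3 in CRISPR Control, where 27.9% and 26.3% of all genes fell. The lowest of the list in CRISPR Control was at -1.71 on the log2 scale. In KO 1, 1 was higher and 1 lower, as 18% and 17.5% of all genes were. All 5 were lower in KO 2 than in KO 1, as 20.1% of all genes were. Of 11 markers of leukocytes, endothelium and fibroblasts, 9 were under the mean of 10. The leukocyte integrin gene ITGAM averaged 18.8 in WT and 13.3 in CRISPR Control, against 37.2 and 91.7 for KO 1 and KO 2, while the pan-leukocyte gene PTPRC averaged at most 5.17 in a line. The stromal receptor gene PDGFRB rose over WT in all 3 edited lines, by 1.89 in CRISPR Control, 1.19 in KO 1 and by 1.69 in KO 2, while the fibroblast genes DCN and LUM averaged at most 4.12. The part of these genes in the results below was not tested.

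Stretches around the start site are shown for members of the interferon-inducible list, because interferon signals through a known DNA motif. The motif searched was GAAA, any pair of bases and GAAA again, on either strand (TTTC, any pair of bases and TTTC in the reverse reading), the core of the interferon-stimulated response element. RefSeq promoter windows of 300 bases (GRCh38.p14) were given for 51 members, and TRIM22 was not among them. The motif was in a window of 9 of the 51 (17.6%), against 4.38% of 27305 genes. The 9 were TRIM2, TRIM5, TRIM14, TRIM16, TRIM21, TRIM26, TRIM34, TRIM44 and TRIM69. Sequences run 5′ to 3′ on the gene's strand, and capitals mark the motif, which is doubled with an overlap in TRIM21 and TRIM26. The stretch of TRIM21 lies after the start of its window, with the motifs at bases 18 to 27 and 24 to 33, and the others lie before theirs. All 30 bases shown for TRIM5, TRIM69 and TRIM21 are annotated as untranslated region of a transcript of the gene. TRIM38 and TRIM56 are shown without a match, for comparison.
TRIM14, chr9:98119223-98119322, minus strand: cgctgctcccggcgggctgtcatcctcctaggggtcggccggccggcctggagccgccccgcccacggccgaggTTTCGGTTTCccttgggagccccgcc
TRIM21, chr11:4393663-4393692, minus strand: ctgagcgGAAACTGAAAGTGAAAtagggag
TRIM5, chr11:5685082-5685111, minus strand: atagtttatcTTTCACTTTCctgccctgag
TRIM69, chr15:44736456-44736485, plus strand: ctaatgagggTTTCTCTTTCtcttaagcaa
TRIM26, chr6:30213527-30213626, minus strand: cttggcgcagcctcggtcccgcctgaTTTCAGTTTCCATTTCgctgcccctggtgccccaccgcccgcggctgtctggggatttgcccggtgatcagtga
TRIM38, chr6:25962702-25962801, plus strand: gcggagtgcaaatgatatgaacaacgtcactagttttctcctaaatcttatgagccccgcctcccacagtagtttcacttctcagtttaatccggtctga
TRIM56, chr7:101085381-101085480, plus strand: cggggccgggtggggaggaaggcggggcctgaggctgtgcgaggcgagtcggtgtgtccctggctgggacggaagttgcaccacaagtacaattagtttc

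Of the interferon-inducible list, 6 of 10 genes with a window held the motif (60.0%). Among tested members with a window, it was in 5 of 13 that rose in KO 2 against WT (38.5%) and in 3 of 16 that did not (18.8%). Of these 5, TRIM5, TRIM14, TRIM21 and TRIM69 are on that list, which was drawn up with earlier results of these libraries known. The split is a description of few genes. These matches describe letters in a window and are no measure of binding.

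Levels per kilobase of exon set the members apart in the unmodified line. Lengths joined all annotated exons of a gene. TRIM65, an antiviral and RNA-silencing regulator, and TRIM47 were the most abundant by this measure, at 763 and 694 normalised counts per kilobase in WT. On the opposite strand 51.6% of the exon bases of TRIM47 overlap an unnamed gene, and the strand setting of the counting was not stated. TRIM22 was the least abundant tested member at 0.320 per kilobase, below TRIM2 at 1.52 and TRIM17 at 3.15. In KO 2 the order changed at both ends. TRIM21 reached 1841 per kilobase, above TRIM47 at 727 and TRIM65 at 560, and TRIM22 reached 30.02.

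The untested members were mostly silent. TRIM40, TRIM42, TRIM43, TRIM48, TRIM49, TRIM51, TRIM58, TRIM60, TRIM61, TRIM64 and TRIM77 had no read, which allows up to 3 reads in a library. The other 14 had a highest library between 0.883 (TRIM10) and 20.9 (TRIM73) normalised counts. Only 3 of them reached a line mean of 10. TRIM29, a B-box protein of squamous epithelium that lacks a RING domain, was at 12.4, 14.03 and 13.1 in KO 2 and at 0 in all libraries of WT and KO 1, with 7.77, 3.56 and 1.10 in CRISPR Control. TRIM39 averaged 10.1 for KO 1 and 10.5 for KO 2, against 4.95 for WT and 5.60 for CRISPR Control. Of its exon bases 29.5% overlap the readthrough gene TRIM39-RPP21 on the same strand and 15.2% overlap HCG18 on the other. TRIM73 averaged 16.4 in CRISPR Control and 4.72 to 6.50 in the other lines; it is a near-identical copy of TRIM74, so reads of the pair may have been split. The highest library of the others was 11.9 for TRIM74, 9.64 for TRIM15, 8.07 for TRIM54, 6.91 for TRIM71, 6.75 for TRIM72, 6.59 for TRIM63, 4.32 for TRIM67, 3.56 for TRIM50 and 1.08 for TRIM31. TRIM34, on the interferon list, had at most 3.30, and 83.6% of its exon bases lie within the readthrough gene TRIM6-TRIM34, which had at most 1.10.

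KO 2 and CRISPR Control differed from WT in more members than KO 1 did, as they did in more of all genes tested. Against WT, 13 of 38 members (34.2%) passed the test in KO 1, where 35.5% of all genes tested passed, with 11 members higher and 2 lower. In KO 2 it was 24 of 38 (63.2%) against 55% of all genes, with 16 higher and 8 lower. In CRISPR Control, which keeps the TIMP1 protein, it was 25 of 38 (65.8%) against 53.4% of all genes, with 15 higher and 10 lower. In KO 1 the share of members past the test was near the background. Members leaned upward more than all genes did, of which 18% rose and 17.5% fell in KO 1, 27.1% rose and 27.9% fell in KO 2, and 27.2% rose and 26.3% fell in CRISPR Control. On the log2 scale the median difference of the 38 members from WT was 0.10 for KO 1, 0.20 for KO 2 and 0.05 for CRISPR Control, where the medians of all genes were 0.00, -0.01 and 0.01. With library totals set equal, KO 2 had 22 members higher than WT and 5 lower, while 32.8% of all genes rose, 21.9% fell and their median moved to 0.09. All 3 comparisons share the WT libraries.

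**Figure D1:**
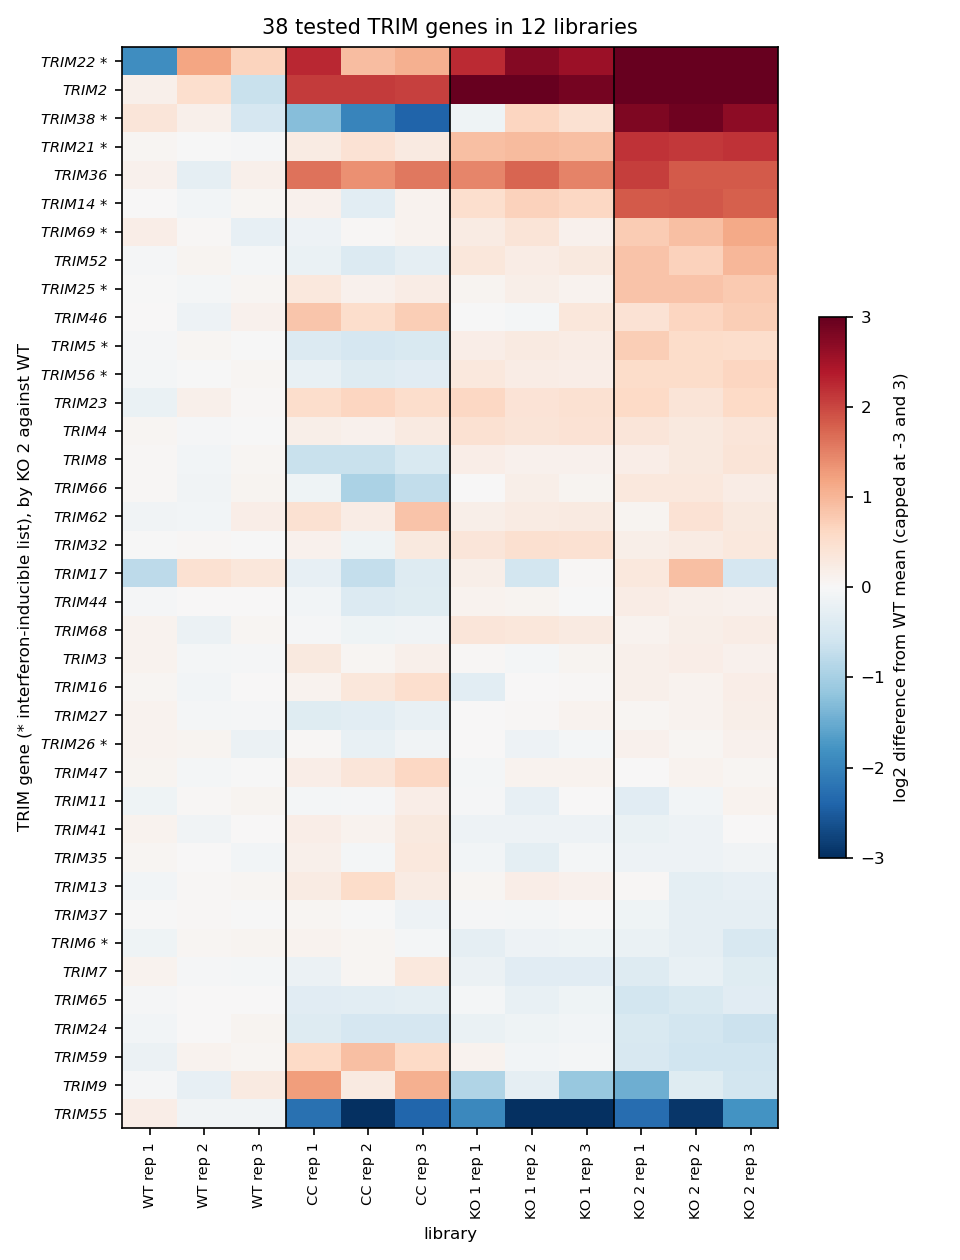
Each row is 1 of the 38 tested TRIM genes and each column 1 of 12 libraries (CC, CRISPR Control); colour gives log2(normalised count + 1) minus the WT mean, capped at 3 in both directions, and rows follow the difference of KO 2 from WT. TRIM22 and TRIM2 at the top and TRIM55 at the bottom carry the strongest colours, and the blue cells of TRIM38 in CRISPR Control stand against its red cells in KO 2.

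Among the other comparisons KO 2 against KO 1 had the fewest members past the test, and the fewest of all genes. KO 1 against CRISPR Control passed in 25 members (65.8%, 16 higher and 9 lower), where 63% of all genes passed (31.7% higher, 31.3% lower). KO 2 against CRISPR Control also passed in 25 (65.8%, 16 higher and 9 lower), where 67.7% did (33.3% higher, 34.4% lower). KO 2 against KO 1, which tests whether the clones differ in their distance from WT, passed in 15 (39.5%, 11 higher and 4 lower). Of all genes 38.2% passed there (18.1% higher, 20.1% lower). The mean of the deficient lines against the mean of the competent lines passed in 28 (73.7%, 19 higher and 9 lower). Of all genes 65.9% passed in that comparison (32.9% higher, 33% lower). With a log2 fold change of at least 1 as a further condition, 4 members passed in KO 1, 7 in KO 2 and 5 in CRISPR Control against WT, where 8.21%, 14.7% and 14.7% of all genes did. Under that condition 3 members passed between KO 1 and CRISPR Control (21.2% of all genes), 9 between KO 2 and CRISPR Control (24.5%), 5 between KO 2 and KO 1 (8.25%) and 7 between deficient and competent lines (14.5%). For 11 members no deficient library overlapped a competent one, 8 lying above and 3 below, as was so for 24.7% of all genes. Above were TRIM2, TRIM4, TRIM5, TRIM8, TRIM14, TRIM21, TRIM52 and TRIM56, and below TRIM6, TRIM7 and TRIM9. At least 1 of the 6 pairs of lines passed for 34 members, against 86.9% of all genes. TRIM3, TRIM11, TRIM17 and TRIM26 passed in none, as did 13.1% of all genes.

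**Figure D2:**
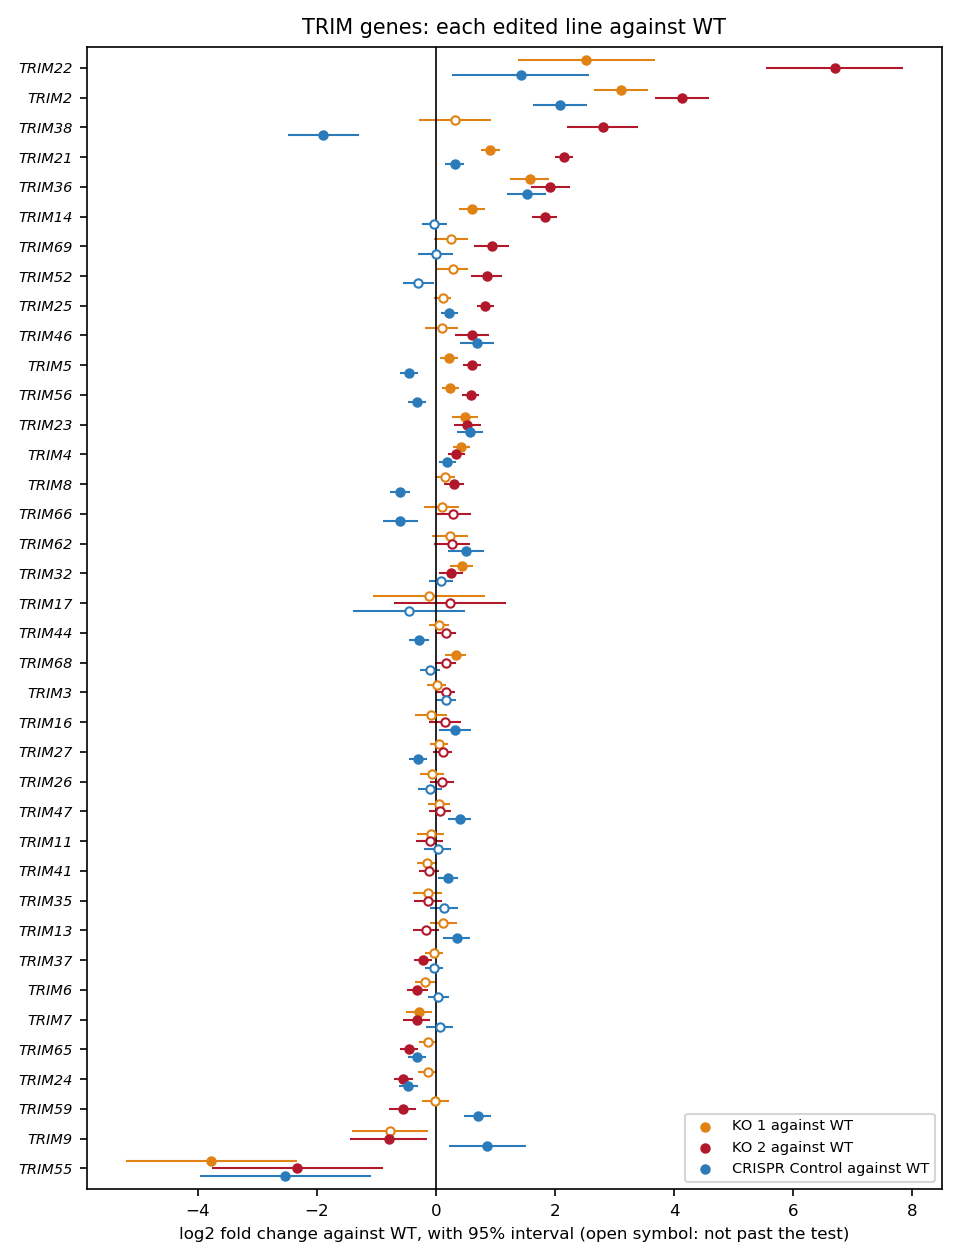
Points give the log2 fold change against WT of the 38 tested TRIM genes in KO 1, KO 2 and CRISPR Control, lines the 95% interval from limma without adjustment, and open symbols values that did not pass the adjusted test. TRIM22 lies at 6.70 in KO 2 and at 2.52 in KO 1, while TRIM38 lies at 2.80 in KO 2 and at -1.89 in CRISPR Control.

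The interferon-inducible or antiviral list had 11 members, of which 10 were tested. Against WT, 8 rose and 1 fell in KO 2, where 55% of all genes passed, and 5 rose in KO 1, where 35.5% did. In CRISPR Control 3 rose and 3 fell, a share near the 53.4% of all genes. KO 2 exceeded KO 1 in 8 of the 10, where 38.2% of all genes passed in either direction. Of the 7 members that passed in KO 2 against WT with a log2 fold change of at least 1, TRIM22, TRIM38, TRIM21 and TRIM14 were on the list and TRIM2, TRIM36 and TRIM55 were not. The list's median difference from WT was 0.88 (KO 2), 0.25 (KO 1) and -0.01 (CRISPR Control). Over the other 28 tested members, 8 rose and 7 fell in KO 2 with a median of 0.16. The list and the family were drawn up with earlier results of these libraries known, so these counts are a description.

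TRIM22, an interferon-induced nuclear ligase that restricts HIV-1 and influenza A virus, lies on chromosome 11 at 5689610-5737089 (GRCh38, plus strand). It was at 0, 7.27 and 4.76 normalised counts in WT, 16.4, 5.93 and 6.59 in CRISPR Control, 16.2, 23.6 and 20.3 in KO 1, and 395, 408 and 328 in KO 2. Libraries of KO 2 lay far above all others, and those of KO 1 overlapped CRISPR Control only through its first library. KO 2 exceeded WT by 6.70 ± 0.55 on the log2 scale (estimate ± SE, limma adjusted p = 6.9e-09, Benjamini-Hochberg) and KO 1 by 4.18 ± 0.55 (limma adjusted p = 7.4e-06). KO 1 exceeded WT by 2.52 ± 0.55 (limma adjusted p = 0.0014), or by 1.59 without WT replicate 1, the library at 0. The difference of CRISPR Control from WT, 1.42 ± 0.55, fell to 0.49 without that library (limma adjusted p = 0.28) and to 1.00 without CRISPR Control replicate 1 (limma adjusted p = 0.16).

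TRIM38, which limits Toll-like receptor signalling and stabilises cytosolic nucleic acid sensors, was the member with the widest gap between CRISPR Control and WT in the opposite direction to KO 2. It was at 58.9, 50.002 and 31.4 normalised counts in WT, 18.1, 10.7 and 7.69 in CRISPR Control, 41.1, 70.9 and 62.7 in KO 1, and 324, 346 and 295 in KO 2. KO 1 overlapped WT, CRISPR Control lay below both, and KO 2 lay above all. KO 2 exceeded WT by 2.80 ± 0.28 (limma adjusted p = 1.3e-07) and CRISPR Control by 4.69 ± 0.28. CRISPR Control fell below WT by 1.89 on the log2 scale (limma adjusted p = 1.9e-05), and KO 1 differed from WT by 0.32 (95% interval -0.28 to 0.92), which did not pass.

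TRIM21 and TRIM14 rose stepwise from the competent lines through KO 1 to KO 2 at high counts. TRIM21, the cytosolic antibody receptor that sends antibody-coated virus to the proteasome (chromosome 11, 4384897-4393702, minus strand), was at 830, 798 and 781 in WT, 946, 1079 and 971 in CRISPR Control, 1490, 1554 and 1505 in KO 1, and 3609, 3486 and 3591 in KO 2. No 2 lines overlapped. The excess of TRIM21 over WT was 0.92 ± 0.07 in KO 1 (limma adjusted p = 1.1e-08), 2.15 ± 0.07 in KO 2 (limma adjusted p = 3.6e-14) and 0.31 ± 0.07 in CRISPR Control (limma adjusted p = 0.0014). TRIM14, a member without a RING domain that supports MAVS signalling (chromosome 9, 98069275-98119222, minus strand), was at 807, 753 and 825 in WT, 874, 640 and 852 in CRISPR Control, 1124, 1288 and 1222 in KO 1, and 2823, 2885 and 2748 in KO 2. WT and CRISPR Control overlapped, with a difference of -0.02 (95% interval -0.24 to 0.19). TRIM14 exceeded WT by 0.61 ± 0.10 in KO 1 (limma adjusted p = 0.00011) and 1.83 ± 0.10 in KO 2 (limma adjusted p = 2.8e-11).

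TRIM25 and TRIM69 rose in KO 2, while their values in KO 1 did not pass. TRIM25, the ligase that ubiquitinates the RNA sensor RIG-I, was at 3330, 3213 and 3483 in WT, 4167, 3628 and 3922 in CRISPR Control, 3521, 3781 and 3575 in KO 1, and 6044, 6016 and 5727 in KO 2. KO 2 lay above all other libraries, by 0.83 ± 0.07 over WT (limma adjusted p = 8.7e-09) and 0.71 ± 0.07 over KO 1 (limma adjusted p = 1.8e-07). KO 1 differed from WT by 0.12 (95% interval -0.03 to 0.26). CRISPR Control, which keeps the TIMP1 protein, exceeded WT in TRIM25 by 0.22 (limma adjusted p = 0.011). TRIM69, an inhibitor of vesicular stomatitis virus, was at 232, 206 and 170 in WT, 180, 206 and 218 in CRISPR Control, 239, 264 and 221 in KO 1, and 343, 377 and 444 in KO 2. Its excess over WT was 0.93 ± 0.14 in KO 2 (limma adjusted p = 1.3e-05), and by 0.26 (95% interval -0.03 to 0.54) in KO 1.

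TRIM5 and TRIM56 were lower in CRISPR Control than in WT and higher in the deficient lines. TRIM5, the restriction factor that recognises the retroviral capsid, was at 1886, 2025 and 1921 in WT, 1465, 1365 and 1425 in CRISPR Control, 2219, 2336 and 2260 in KO 1, and 3238, 2836 and 2811 in KO 2. None of the 4 lines overlapped. KO 2 exceeded WT by 0.60 ± 0.07 (limma adjusted p = 1.1e-06), while CRISPR Control fell by 0.45 on the log2 scale (limma adjusted p = 3.9e-05). The difference of KO 1 from WT, 0.22 ± 0.07 (limma adjusted p = 0.021), no longer passed without WT replicate 1 (0.20, limma adjusted p = 0.073), WT replicate 3 (0.22, 0.069), KO 1 replicate 2 (0.20, 0.085) or KO 1 replicate 3 (0.23, 0.056). TRIM56, an antiviral ligase acting on STING and on Toll-like receptor adaptors, was at 2457, 2550 and 2671 in WT, 2186, 1956 and 2018 in CRISPR Control, 3167, 2970 and 2954 in KO 1, and 3743, 3764 and 3985 in KO 2, again without overlap. It exceeded WT by 0.58 ± 0.07 in KO 2 (limma adjusted p = 9.8e-07) and by 0.24 ± 0.07 in KO 1 (limma adjusted p = 0.0099), or 0.21 without KO 1 replicate 1 (limma adjusted p = 0.056).

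TRIM6 and TRIM26 departed from the rest of the list. TRIM6, which builds free ubiquitin chains that activate IKBKE, was at 1891, 2135 and 2166 in WT, 2225, 2148 and 1992 in CRISPR Control, 1716, 1853 and 1889 in KO 1, and 1792, 1702 and 1483 in KO 2. It fell below WT in KO 2 by 0.32 on the log2 scale (limma adjusted p = 0.0037), and its value in KO 1 was -0.18 (95% interval -0.36 to -0.00). On the same strand 29.2% of the exon bases of TRIM6 overlap the readthrough gene TRIM6-TRIM34. TRIM26, an antiviral ligase, was at 662, 660 and 546 in WT, 631, 530 and 579 in CRISPR Control, 628, 555 and 596 in KO 1, and 675, 650 and 674 in KO 2. Its largest difference between lines, KO 2 against CRISPR Control, was 0.20 ± 0.10 (limma adjusted p = 0.076), which passed without CRISPR Control replicate 1 (0.27, limma adjusted p = 0.031). Its promoter window holds the motif searched, as shown above.

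**Figure D3:**
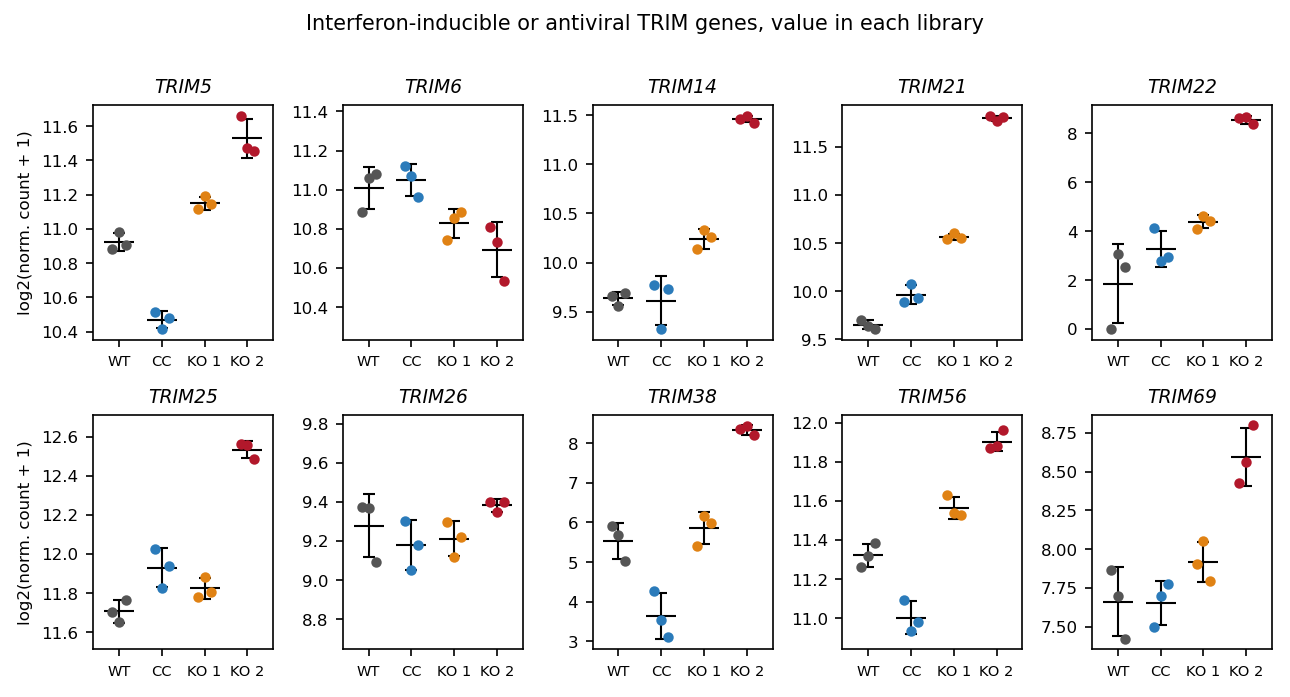
Each panel plots log2(normalised count + 1) of 1 interferon-inducible or antiviral TRIM gene, with a point for each of 3 libraries per line (CC, CRISPR Control) and the mean with SD in black. In TRIM5, TRIM14, TRIM21, TRIM22, TRIM25, TRIM38, TRIM56 and TRIM69 the 3 KO 2 points lie above all others, while TRIM6 is lowest in KO 2 and in TRIM26 the KO 2 points overlap only those of WT.

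Outside that list, TRIM2 and TRIM36 rose in all 3 edited lines. TRIM2, an NHL-repeat ligase of neurofilament light chain (chromosome 4, 153152163-153339319, plus strand), was at 26.0, 33.6 and 14.3 in WT, 104, 103 and 98.9 in CRISPR Control, 228, 226 and 176 in KO 1, and 473, 403 and 403 in KO 2. No 2 lines overlapped. TRIM2 exceeded WT by 2.08 ± 0.22 in CRISPR Control (limma adjusted p = 2.1e-07), 3.11 ± 0.22 in KO 1 (limma adjusted p = 2.1e-09) and 4.13 ± 0.22 in KO 2 (limma adjusted p = 1.5e-11), and 19.98% of its exon bases overlap an unnamed gene on the same strand. TRIM36, a COS-box protein of microtubules, was at 55.5, 41.8 and 57.2 in WT, 159, 133 and 155 in CRISPR Control, 144, 174 and 146 in KO 1, and 219, 186 and 186 in KO 2. TRIM36 exceeded WT by 1.52, 1.58 and 1.92 (SE 0.16 each), in that order of lines. CRISPR Control and KO 1 overlapped, with a difference of 0.05 (95% interval -0.28 to 0.38).

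TRIM55 and TRIM9, both with a COS box, were the members with the lowest values in the deficient lines relative to WT. TRIM55, a ligase of the muscle sarcomere also called MURF2, was at 83.8, 67.3 and 67.6 in WT, 14.7, 8.30 and 13.2 in CRISPR Control, 18.4, 0 and 7.07 in KO 1, and 14.1, 8.77 and 20.2 in KO 2. WT lay above the other 9 libraries, which overlapped each other. Its log2 fold changes from WT were -3.77 in KO 1, -2.33 in KO 2 and -2.53 in CRISPR Control (SE 0.68, limma adjusted p = 0.00027, 0.0076 and 0.0045). The gap between KO 2 and KO 1, 1.44, did not pass and rested on single KO 1 libraries, at 2.36 without replicate 1 (limma adjusted p = 0.0069) and 0.23 without replicate 2, the library at 0 (limma adjusted p = 0.73). Without that library KO 1 against WT was -2.56 (limma adjusted p = 0.00015). TRIM9, a brain-enriched ligase, was at 62.3, 53.6 and 77.2 in WT, 153, 77.1 and 135 in CRISPR Control, 33.5, 52.9 and 28.3 in KO 1, and 22.4, 49.1 and 43.4 in KO 2. All 6 deficient libraries lay below the competent ones, with a difference of -1.21 ± 0.22 (limma adjusted p = 7.1e-05). KO 2 fell below WT by 0.79 on the log2 scale (limma adjusted p = 0.036), which was lost without KO 2 replicate 1 (-0.46, limma adjusted p = 0.22), WT replicate 1 (-0.81, limma adjusted p = 0.071) or WT replicate 3 (-0.66, limma adjusted p = 0.13). CRISPR Control exceeded WT by 0.87 (limma adjusted p = 0.023), which was lost without any of 4 libraries, at 0.67 to 0.85.

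TRIM59, TRIM24 and TRIM65 fell in KO 2. TRIM59, a membrane-anchored ligase linked to proliferation, was at 404, 495 and 476 in WT, 694, 850 and 692 in CRISPR Control, 494, 431 and 438 in KO 1, and 329, 302 and 300 in KO 2. KO 2 lay below and CRISPR Control above all other libraries, at -0.56 ± 0.11 (limma adjusted p = 0.00028) and 0.70 ± 0.11 (limma adjusted p = 3.1e-05) from WT, while KO 1 was at -0.01 (95% interval -0.24 to 0.22). On the opposite strand 19.9% of its exon bases overlap SMC4, and the strand setting of the counting was not stated. TRIM24, a bromodomain cofactor of nuclear receptors, was at 1971, 2116 and 2220 in WT, 1606, 1485 and 1474 in CRISPR Control, 1829, 1909 and 1981 in KO 1, and 1525, 1441 and 1346 in KO 2, and fell below WT by 0.47 in CRISPR Control and 0.55 in KO 2 on the log2 scale (limma adjusted p = 4.7e-05 and 6.2e-06). TRIM65 was at 2900, 3016 and 3006 in WT, 2339, 2392 and 2423 in CRISPR Control, 2877, 2550 and 2728 in KO 1, and 2039, 2160 and 2352 in KO 2, and in CRISPR Control and KO 2 it fell by 0.32 and 0.45 on that scale (limma adjusted p = 0.0011 and 3.4e-05). In both genes CRISPR Control and KO 2 fell below WT, and KO 1 did not pass.

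TRIM8 and TRIM66 fell in CRISPR Control. TRIM8, which acts on cytokine signalling and NF-kB, was at 2079, 1900 and 2096 in WT, 1264, 1279 and 1465 in CRISPR Control, 2315, 2227 and 2195 in KO 1, and 2341, 2483 and 2659 in KO 2. CRISPR Control fell below WT by 0.60 on the log2 scale (limma adjusted p = 3.3e-06), and KO 2 exceeded WT by 0.30 ± 0.08 (limma adjusted p = 0.0032). On the opposite strand 19.3% of the exon bases of TRIM8 overlap TRIM8-DT. TRIM66, a chromatin reader of the TRIM24 group, was at 1221, 1110 and 1279 in WT, 1106, 623 and 721 in CRISPR Control, 1219, 1356 and 1280 in KO 1, and 1506, 1503 and 1398 in KO 2. CRISPR Control fell by 0.60 on the log2 scale (limma adjusted p = 0.0014), with 1 of its libraries close to WT. TRIM66 in KO 2 was at 0.29 from WT (limma adjusted p = 0.088), and passed without CRISPR Control replicate 1 (limma adjusted p = 0.0054) or 2 (limma adjusted p = 0.039).

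**Figure D4:**
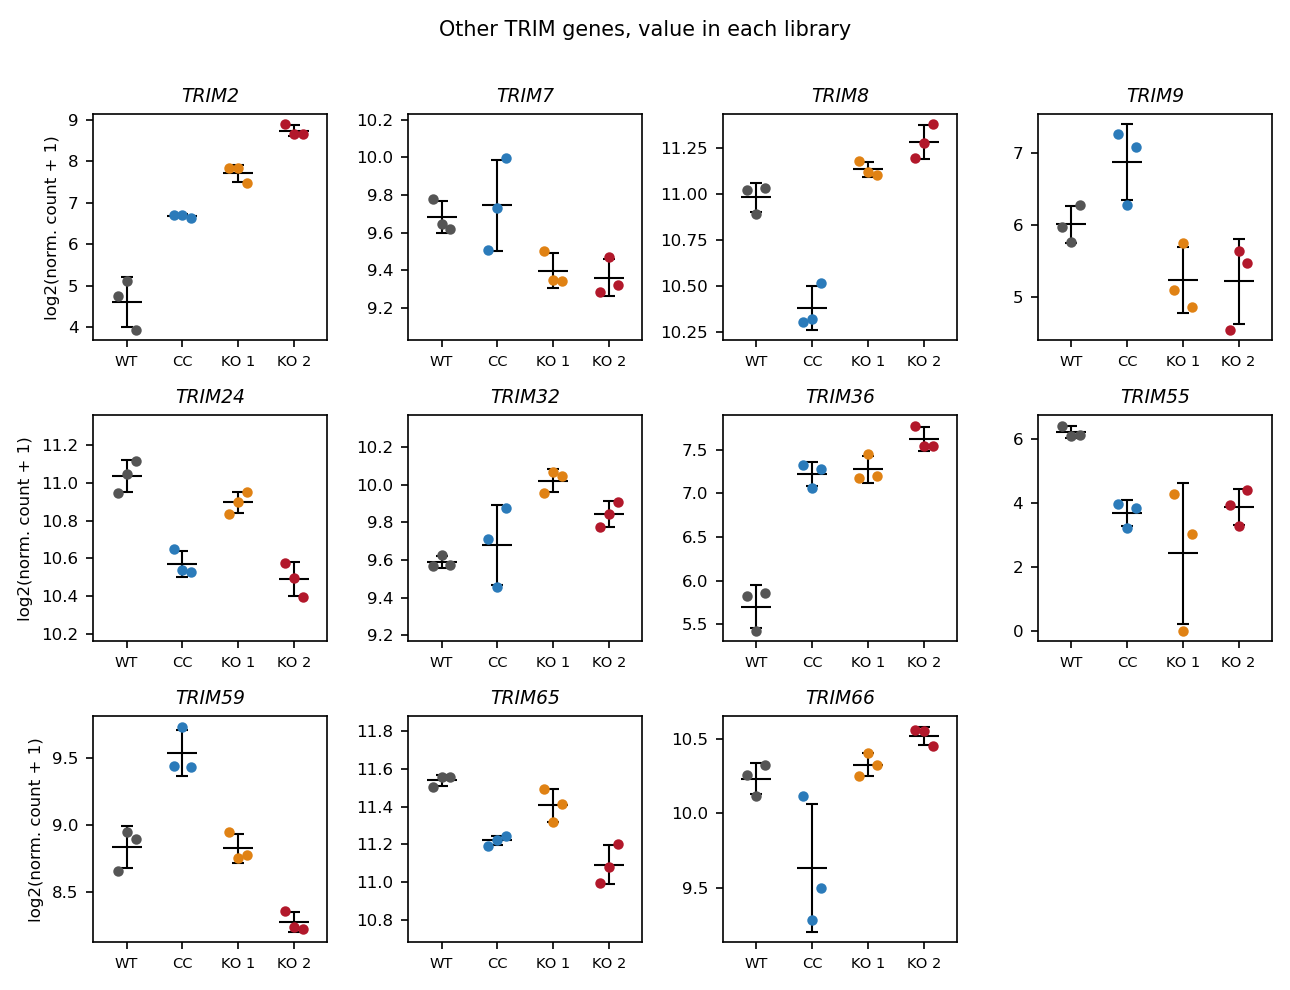
Each panel plots log2(normalised count + 1) of a TRIM gene outside the interferon-inducible list, with a point for each of 3 libraries per line (CC, CRISPR Control) and the mean with SD in black. TRIM2 climbs from WT to KO 2, TRIM55 is high only in WT among the 4 lines, and TRIM8 is lowest in CRISPR Control.

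Members past the test in both deficient lines in the same direction were 12 of 38 (10 higher, 2 lower), where 26.4% of all genes were. Of the 12, CRISPR Control had moved in the same direction from WT in 7 (TRIM2, TRIM4, TRIM21, TRIM22, TRIM23, TRIM36 and TRIM55) and in the opposite direction in 2 (TRIM5 and TRIM56). The remaining 3, where 10.2% of all genes fell, formed an intersection like that by which the study set apart changes absent from the control. The study used DESeq2 calls, while limma calls were used here and the condition of the same direction was added. The 3 were TRIM14, TRIM32 and TRIM7. TRIM32, an NHL-repeat ligase of muscle, was at 759, 791 and 760 in WT, 837, 701 and 937 in CRISPR Control, 991, 1072 and 1055 in KO 1, and 874, 920 and 961 in KO 2. It exceeded WT by 0.43 ± 0.09 in KO 1 (limma adjusted p = 0.0015) and 0.25 ± 0.09 in KO 2 (limma adjusted p = 0.031), the latter lost without WT replicate 1 or 3 or KO 2 replicate 2 or 3 (0.22 to 0.25). TRIM7, a PRY-SPRY ligase first found through glycogenin, was at 878, 801 and 785 in WT, 727, 848 and 1019 in CRISPR Control, 725, 650 and 648 in KO 1, and 624, 708 and 640 in KO 2. It fell below WT by 0.28 in KO 1 (limma adjusted p = 0.048, or 0.058 with the replicate number as a block) and 0.32 in KO 2 (limma adjusted p = 0.017) on the log2 scale. The call of TRIM7 in KO 1 was lost without any of WT replicates 1, 2 and 3, KO 1 replicates 2 and 3 and KO 2 replicates 2 and 3 (-0.23 to -0.32), and that in KO 2 without WT replicate 1 (-0.27) or KO 2 replicate 1 (-0.28). TRIM14 was in the intersection whichever library was left out. TRIM4 entered it without WT replicate 2 or 3 or CRISPR Control replicate 3, and TRIM22 without WT replicate 1 or CRISPR Control replicate 1.

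Members were grouped by C-terminal domain into classes that did not overlap. Those with a COS box and those without a RING domain formed their own classes, whatever other C-terminal domain they carry. Most classes held members that rose and members that did not. Of 19 tested members in the PRY-SPRY class thus defined, 7 rose and 3 fell in KO 2 against WT (52.6%, near the 55% of all genes), with a median of 0.16. Of 4 with a COS box, 2 rose (TRIM36 and TRIM46) and 2 fell (TRIM9 and TRIM55). All 4 also passed in CRISPR Control against WT, 3 higher and 1 lower, where 53.4% of all genes passed. TRIM46 was at 0.69 in CRISPR Control and 0.61 in KO 2. Of 3 with NHL repeats, TRIM2 and TRIM32 rose and TRIM3 was at 0.16 (95% interval -0.00 to 0.33). All 3 tested members with no further domain, TRIM8, TRIM52 and TRIM56, rose in KO 2, and TRIM52 did so by 0.85 ± 0.13 (limma adjusted p = 1.3e-05), with 27.6% of its exon bases overlapping a gene on the opposite strand. Of 5 with another C-terminal domain, TRIM23 rose and TRIM24, TRIM37 and TRIM59 fell. The call of TRIM37 (-0.22, limma adjusted p = 0.015) was lost without WT replicate 2 or KO 2 replicate 2 or 3 (-0.19 to -0.20), with equal library totals (-0.12, limma adjusted p = 0.19) and with quantile normalization (-0.13, limma adjusted p = 0.14). TRIM13, the fifth, was at -0.16. Of 4 tested members without a RING domain, which cannot act as RING ligases, TRIM14 rose in KO 2, and TRIM16, TRIM44 and TRIM66 were at 0.15, 0.17 and 0.29 without passing. TRIM23, a member with an ARF domain, stood at a like distance from WT in all 3 edited lines, at 0.49 (KO 1), 0.53 (KO 2) and 0.57 (CRISPR Control) with an SE of 0.11.

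Neighbouring members did not all share a direction in the clusters on chromosomes 11 and 5 described here. In the GRCh38 annotation 29 of the 63 lie within 1 Mb of another member, in 9 clusters. The largest, of 7, is on chromosome 11 between TRIM21 (start 4384897) and TRIM3 (end 6474459). In KO 2 against WT its 6 tested genes were TRIM21 at 2.15, TRIM68 at 0.16, TRIM6 at -0.32, TRIM5 at 0.60, TRIM22 at 6.70 and TRIM3 at 0.16, of which TRIM68 and TRIM3 did not pass. TRIM22 lies within the span of TRIM5 on the other strand, and in the annotation their exons do not overlap. In the cluster of 6 on chromosome 6, from TRIM31 to TRIM39, TRIM26 was the 1 tested gene. TRIM7, TRIM41 and TRIM52 are neighbours on chromosome 5, and in KO 2 TRIM7 fell, TRIM52 rose and TRIM41 was at -0.11 (95% interval -0.28 to 0.06).

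Relatives under other symbols, the enzymes that charge ubiquitin and the signalling partners of TRIM ligases were read from lists of 8, 18 and 18 genes. Of 5 relatives tested, 4 were higher and 1 lower in deficient than in competent lines, where 32.9% of all genes were higher and 33% lower. All 5 also passed in CRISPR Control against WT, 2 higher and 3 lower, where 53.4% of all genes passed. PML, the tripartite-motif organiser of nuclear bodies, averaged 1096 for KO 1 and 1944 for KO 2, against 887 for WT and 1140 for CRISPR Control, a rise of 1.13 in KO 2 over WT (limma adjusted p = 4.2e-08). The mean of PML in CRISPR Control lay above that in KO 1. MID1, the microtubule ligase of midline development, averaged 2190 for KO 1 and 1888 for KO 2, against 1662 for WT and 1059 for CRISPR Control, and fell by 0.65 on the log2 scale in CRISPR Control against WT (limma adjusted p = 1.4e-06). TRIML2, which lacks the RING, averaged 1.93 for KO 1 and 16.7 for KO 2, against 10.7 for WT and 43.7 for CRISPR Control, with 1 KO 1 library at 0. TRIM16L was listed at 0 in every library, and its near-identity to TRIM16 may have directed shared reads to 1 of the pair or to neither.

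Of 18 ubiquitin-activating, conjugating and ubiquitin genes, 6 were higher and 7 lower in deficient than in competent lines (72.2%, against 65.9% of all genes). UBA7, which activates the ubiquitin-like modifier ISG15, was at 21.5, 15.5 and 17.1 in WT, 30.2, 16.6 and 15.4 in CRISPR Control, 82.1, 88.9 and 102 in KO 1, and 345, 434 and 398 in KO 2. UBA7 exceeded WT by 2.28 in KO 1 and 4.37 in KO 2 (limma adjusted p = 3.2e-07 and 1.6e-11). UBE2L6, the E2 enzyme paired with UBA7, was at 187, 150 and 174 in WT, 313, 314 and 335 in CRISPR Control, 422, 496 and 413 in KO 1, and 1822, 2019 and 2035 in KO 2, up by 1.38 in KO 1 and 3.52 in KO 2 over WT (limma adjusted p = 6.9e-09 and 6.3e-15). The E2 enzymes that RING ligases commonly use differed less. UBE2D2 averaged 3648 for KO 1 and 3273 for KO 2, against 4349 for WT and 5835 for CRISPR Control, and was lower in deficient lines by 0.54 on the log2 scale. UBE2D1 averaged 857 for KO 1 and 744 for KO 2, against 789 for WT and 1353 for CRISPR Control, and rose in CRISPR Control against WT by 0.78 (limma adjusted p = 1.9e-05), with no difference past the test in KO 1 or KO 2.

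Of 18 signalling partners, 11 were higher and 0 lower in deficient than in competent lines (61.1%). Of all genes 65.9% passed there, 32.9% higher and 33% lower. In KO 2 against WT 11 partners rose and 2 fell (72.2%, against 55%). In KO 1 against WT 7 rose and 0 fell (38.9%, against 35.5%). CRISPR Control had 2 partners higher than WT and 6 lower (44.4%, against 53.4%). IRF9, an interferon regulatory factor that binds the response element named above, was at 30.6, 19.1 and 27.6 in WT, 13.0, 14.2 and 16.5 in CRISPR Control, 60.5, 60.8 and 56.5 in KO 1, and 115, 156 and 105 in KO 2. IRF9 exceeded WT by 1.197 in KO 1 and 2.24 in KO 2 (limma adjusted p = 0.00052 and 1.7e-07). IRF7, the factor that drives interferon genes after virus sensing, was at 455, 397 and 397 in WT, 351, 331 and 430 in CRISPR Control, 1035, 1082 and 1004 in KO 1, and 1800, 2166 and 2183 in KO 2, up by 1.32 and 2.29 over WT (limma adjusted p = 1.3e-08 and 2.4e-12). The lines had the same order in both factors as in TRIM14, with KO 1 between the competent lines and KO 2.

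**Figure D5:**
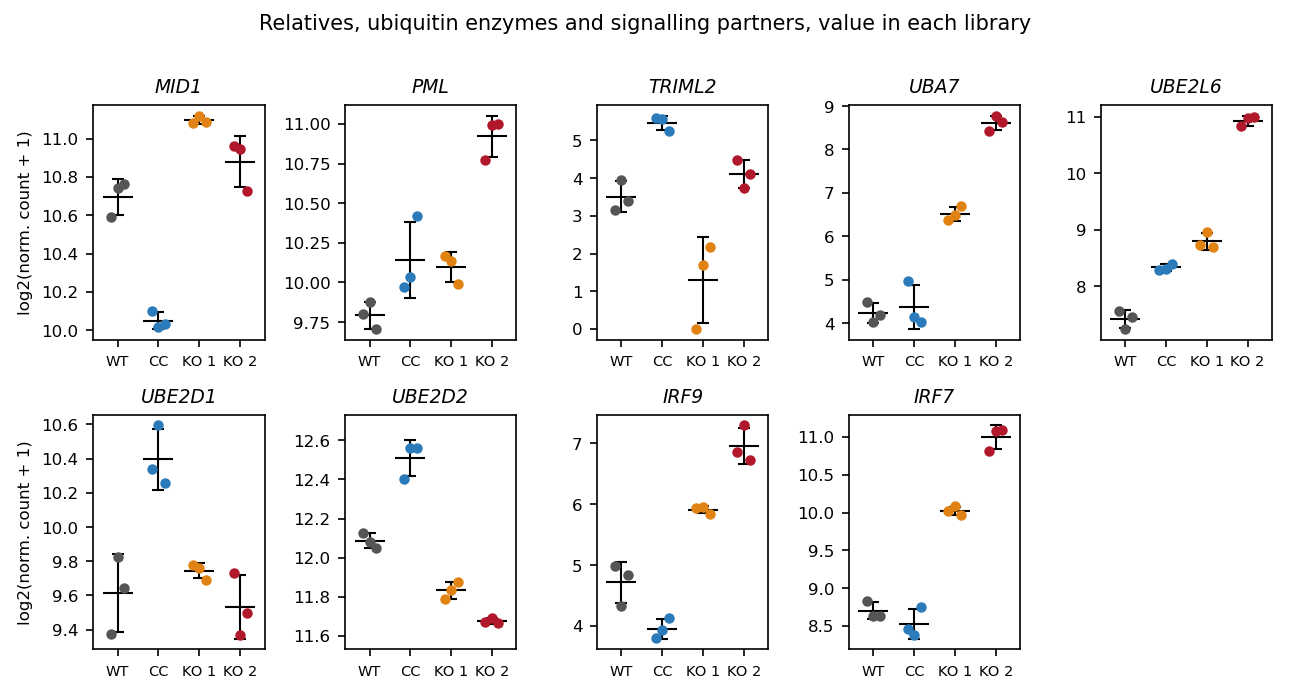
Each panel plots log2(normalised count + 1) of a relative of the TRIM family, a ubiquitin enzyme or a signalling partner, with a point for each of 3 libraries per line (CC, CRISPR Control) and the mean with SD in black. UBA7, UBE2L6, IRF9 and IRF7 are highest in KO 2 and next highest in KO 1, while UBE2D1 and UBE2D2 are highest in CRISPR Control.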

How the data were processed

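RNA of 12 libraries, 3 for each of 4 lines, was sequenced. The authors trimmed read pairs with Cutadapt, mapped them to GRCh38 with STAR, counted per gene with featureCounts and scaled counts by DESeq2 size factors. Strand setting and annotation release are not given in the sources used here. The deposited values are thus a signal of scaled counts. They were whole multiples of 1 step per library for 100% of values (tolerance 0.01 reads), which gave reads and depth. The 4 columns of line means were not used, and 1 blank line was left out.

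limma 3.58.1 (R 4.3.3) was fitted on log2(normalised count + 1) for the 15987 genes with a mean of at least 10, which held 99.9% of reads, with all 12 libraries, a trended prior and no block. The pseudocount of 1 understates changes of low genes. Tests were two-sided, Benjamini-Hochberg adjusted over all genes, with a threshold of 0.05, and p-values measure the spread between these libraries. On recovered reads, DESeq2 1.42.0 and edgeR 4.0.16 called 8915 and 8969 genes in KO 2 against WT, where limma called 8791. Scripts were tested on simulated data. Deviations of same-numbered libraries had r from -0.129 to 0.160 over 18 pairs, against -0.189 to 0.126 for pairs with different numbers. The highest, 0.160 and 0.145, were between CRISPR Control and KO 2, for replicates 1 and 3. Numbers were not taken as pairs in the main fit, and a fit with the replicate block is given below. Members and lists were chosen with earlier results of these data known. Library values are given for tested members of the interferon list, the intersection and the 5 highest and 5 lowest changes of each edited line against WT, and from other lists for up to 2 genes in each direction between deficient and competent lines. Values of other members were named after they were seen. RefSeq and GENCODE supplied sequences and exons, and 99.1% of gene identifiers matched the name table. Floors and counts of 0 cover counting error only.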

Additional observations from a re-analysis of the deposited data

Results flagged for a closer look

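Between the 2 knockout clones, 15 of 38 members differed in their distance from WT, tested as KO 2 against KO 1 with limma, where 38.2% of all genes did. The differences, KO 2 minus KO 1 on the log2 scale, were 4.18 for TRIM22, 2.48 for TRIM38, 1.23 for TRIM21, 1.22 for TRIM14, 1.02 for TRIM2, 0.71 for TRIM25, 0.68 for TRIM69, 0.57 for TRIM52, 0.51 for TRIM46, 0.38 for TRIM5 and 0.34 for TRIM56. They were -0.29 for TRIM13, -0.32 for TRIM65, -0.41 for TRIM24 and -0.55 for TRIM59. TRIM13 lost its call when any of 6 libraries was left out. TIMP1 itself was lower in KO 2 than in KO 1 by 0.46 on the log2 scale. Clone and extent of the TIMP1 difference cannot be told apart with 1 clone of each kind.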

How the results depend on the processing

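No member value that passed the test changed sign under an alternative. Of 6104 values of the 38 members, over 7 comparisons and all alternatives, 5767 kept their side of the threshold, 257 lost a call and 80 gained one, and 99 values changed sign, with 0 of these past the test in either setting. Requiring a log2 fold change of at least 1 left 4 members in KO 1 and 7 in KO 2 against WT, 5 in CRISPR Control against WT, 3 in KO 1 and 9 in KO 2 against CRISPR Control, 5 in KO 2 against KO 1, 7 between deficient and competent lines, and 0 in the intersection. The intersection held 5 members by edgeR on recovered reads and 6 when only the lines compared were fitted, and TRIM14 was in both sets. Leaving out 1 library gave 11 to 14 members in KO 1 and 21 to 26 in KO 2 against WT, 21 to 25 in CRISPR Control against WT, 22 to 26 and 23 to 26 against CRISPR Control, 14 to 16 in KO 2 against KO 1, 25 to 29 between deficient and competent lines, and 1 to 4 in the intersection, with 1 when KO 2 replicate 2 or 3 was left out. With the replicate block, 12, 24 and 25 members passed against WT in KO 1, KO 2 and CRISPR Control, and the intersection held 2, since the call of TRIM7 in KO 1 was lost. Setting library totals equal moved the median of all genes to 0.11 in KO 2 against CRISPR Control, and to 0.09 in KO 2 against KO 1, where 17 members were higher and 3 lower and 24.3% of all genes were higher and 12.8% lower. At this depth members with a few reads, such as TRIM22 in WT, have wide intervals.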
